A study of Mus musculus with 12 samples.

Results

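Oxidative phosphorylation is carried out by 5 protein complexes of the inner mitochondrial membrane, and its genes lie in both the mitochondrial and the nuclear genome. They were picked here by symbol, as all symbols beginning with mt- and the symbols of the nuclear subunit families Nduf, Sdh, Uqcr, Cox4 to Cox8 and Atp5. That gave 86 genes, 13 mitochondrially and 73 nuclear encoded, among the 10405 symbols listed for regulatory T cells (Treg) and the 9886 listed for conventional T cells (Tcon). All 86 were listed for both cell types, no pair among them had identical values, and all 86 passed the filter on low values. By complex there were 41 genes of complex I (7 of them mitochondrial), 4 of complex II (none mitochondrial), 8 of complex III (1), 14 of complex IV (3) and 19 of complex V (2). Another 12 protein-coding mouse symbols of these families, among them Cox5b, Ndufb4 and Uqcr11, were not analysed here. Of the 86, 3 are not structural subunits: Cox7a2l, a factor that joins complexes into supercomplexes, and Atp5s and Atp5sl, which carry older names of the ATP synthase family.

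Complexes I to IV pass electrons from NADH and succinate to oxygen and, with the exception of complex II, pump protons across the membrane. Complex V, ATP synthase, lets the protons flow back and makes ATP. The mitochondrial genes are transcribed as long strands from the circular mitochondrial DNA and encode core membrane subunits, whereas the nuclear genes are transcribed one by one, and their proteins are imported. In T cells, naive and regulatory cells are known to lean on this pathway for ATP.

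All cells came from FOXP3-IRES-GFP mice, the strain B6.Cg-Foxp3tm2Tch/J, in which the Foxp3 locus also encodes GFP. The mice were injected intraperitoneally with SAH-FOXP3(229-259)C (SAH), a stapled alpha-helical peptide made against FOXP3, at 25 mg/kg daily for 2 days, or with vehicle, which the sample titles call DMSO. From each cell type, naive CD4+ Tcon and CD4+CD25+FOXP3+ Treg, 2 SAH libraries and 1 vehicle library were made from spleen (numbers 05 and 06, and 04) and the same from lymph node (02 and 03, and 01). The labels do not say which libraries came from separate mice, so the p-values rest on a spread between libraries that may be technical. In bulk RNA, fewer cells of a type and less RNA per cell cannot be told apart.

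The sequencing depth rebuilt from the values was 34295149 to 45969438 reads per library when rows of identical values are counted once, and the least abundant of the 86 genes had 109 reads in its lowest library. The 4 Treg genes Foxp3, Il2ra, Ctla4 and Ikzf2 summed to 3706 to 4219 CPM (read counts scaled to library size) in Treg libraries and 204 to 253 CPM in Tcon libraries, and 4 T cell genes to 2282 to 2366 CPM in Treg and 2527 to 2753 CPM in Tcon libraries. Spleen libraries held more myeloid, red cell, B cell and plasma cell RNA than lymph node libraries. The 4 listed of 8 myeloid markers summed to 38.9 to 73.6 CPM in Treg from spleen, against 6.16 to 8.01 CPM in Treg from lymph node, and the 2 listed of 7 red cell markers to 10.7 to 138.5 CPM against 0.626 to 0.849 CPM. Of the B cell list, the 3 listed of 6 summed to 68.2 to 91.1 CPM against 52.0 to 64.5 CPM. In Tcon, the myeloid list (3 of 8 listed) summed to 29.9 to 36.5 CPM in spleen and 10.4 to 11.9 CPM in lymph node, and the only listed red cell marker, Slc4a1, was at 3.38 to 50 CPM in spleen and at 0 in lymph node. The plasma cell list (2 of 4 listed) summed to 173 to 216 CPM in spleen and 81.5 to 98.2 CPM in lymph node Treg, and to 143 to 221 CPM in spleen and 98.2 to 127 CPM in lymph node Tcon. The CD8 and NK list (3 of 5 listed) was lower in spleen than in lymph node Treg, at 24.3 to 25.9 CPM and 32.7 to 35.0 CPM, and higher in Tcon, at 40.1 to 58.8 CPM and 15.5 to 17.2 CPM. The B cell list (2 of 6 listed) summed to 17.3 to 28.0 CPM in spleen and 5.39 to 7.21 CPM in lymph node Tcon. The part of these cells in the organ differences given below was not tested.

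The mitochondrial genes are packed with almost no space between them. In mm10, mt-Atp8 lies at chrM:7766-7969 on the plus strand and shares its last 43 bases (chrM:7927-7969) with mt-Atp6, so that reads in this stretch cannot be given to only 1 of the pair. mt-Nd4l and mt-Nd4 share 7 bases (chrM:10167-10173), and mt-Nd6 (chrM:13552-14070) is the only 1 of the 13 on the minus strand. The mt-Atp8 sequence is shown because mt-Atp8 had the highest level per length of all 86 genes and overlaps its neighbour, with the bases shared with mt-Atp6 in capitals.
mt-Atp8: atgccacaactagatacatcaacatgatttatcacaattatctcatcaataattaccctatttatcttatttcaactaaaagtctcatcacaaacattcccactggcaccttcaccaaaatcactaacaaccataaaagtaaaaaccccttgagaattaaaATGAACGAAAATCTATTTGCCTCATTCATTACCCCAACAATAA

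Nuclear genes of the pathway are known targets of the factors NRF1 and YY1 and of the ETS family member GABP. Of the 73 nuclear genes, 62 had a promoter in the RefSeq table of GRCm38.p6, 300 bases that span the start site and lie mostly before it. The NRF1 letters GCGCATGCG, on either strand, stood in 11.3% of these and in 1.81% of the promoters of all genes. The ETS letters CCGGAAG stood in 22.6% against 9.12% of all, and the YY1 letters AAGATGGCG in 11.3% against 1.49% of all. The promoters of Cox8a (chr19:7217567-7217866, minus strand), Atp5d (chr10:80142025-80142324, plus strand, the upstream of 2 listed start sites) and Ndufa8 (chr2:36049289-36049588, minus strand) are shown because these 3 genes passed the test between organs in Treg. Capitals mark matches to the letters above, 2 of ETS in Cox8a, 1 of NRF1 in Ndufa8 and none in Atp5d. A match is a description of the letters and not a bound site.
Cox8a promoter: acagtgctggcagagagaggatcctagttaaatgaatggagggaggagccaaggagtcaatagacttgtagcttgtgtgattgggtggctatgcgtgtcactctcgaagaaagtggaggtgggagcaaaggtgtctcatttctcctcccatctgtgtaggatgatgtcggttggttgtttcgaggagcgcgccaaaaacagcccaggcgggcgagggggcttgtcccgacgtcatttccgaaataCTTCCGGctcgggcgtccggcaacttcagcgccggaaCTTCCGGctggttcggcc
Atp5d promoter: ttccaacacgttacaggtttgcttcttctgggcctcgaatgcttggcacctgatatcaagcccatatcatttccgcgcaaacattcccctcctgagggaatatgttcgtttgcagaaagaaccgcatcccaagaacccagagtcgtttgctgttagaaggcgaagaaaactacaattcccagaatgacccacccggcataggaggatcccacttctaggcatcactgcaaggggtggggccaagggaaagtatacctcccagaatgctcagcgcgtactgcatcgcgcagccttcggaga
Ndufa8 promoter: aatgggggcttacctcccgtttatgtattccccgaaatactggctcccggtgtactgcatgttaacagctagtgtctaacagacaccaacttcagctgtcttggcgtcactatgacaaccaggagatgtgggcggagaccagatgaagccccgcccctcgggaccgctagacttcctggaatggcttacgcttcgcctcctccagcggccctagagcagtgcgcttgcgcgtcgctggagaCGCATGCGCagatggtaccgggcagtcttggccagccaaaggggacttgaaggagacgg

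Per length of transcript, the RNA of every mitochondrial gene was above that of every nuclear gene in both cell types. The mean level over 6 libraries ran from 1023 to 10730 CPM per kb (median 2292) for the 13 mitochondrial genes in Treg and from 2.26 to 283 CPM per kb (median 46.0) for the 73 nuclear genes in Treg. In Tcon the mitochondrial genes were at 1231 to 16840 CPM per kb (median 2936) and the nuclear genes at 1.93 to 391 CPM per kb (median 44.8). These are levels of different genes, for which no test was made. The libraries were made with a kit that selects mRNA, and the transcripts of the 2 genomes differed in GC content (median 37.1% for mitochondrial and 51.0% for nuclear genes), so their ratio is a ratio of reads.

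Complex I had the lowest median level in both genomes. Among mitochondrial genes the median level per kb was 1225 CPM in Treg and 1997 CPM in Tcon for complex I and 2961 and 4129 CPM for mt-Cytb, the cytochrome b of complex III. For complex IV it was 5126 CPM in Treg and 7447 CPM in Tcon, and for complex V 7406 and 11730 CPM. Complex V has only 2 mitochondrial genes, which overlap. Of these, mt-Atp6 stood at 4081 and 6612 CPM, below the median of complex IV. The highest were mt-Atp8, a small membrane subunit of ATP synthase (10730 CPM per kb in Treg and 16840 in Tcon), and mt-Co1, the catalytic subunit of cytochrome c oxidase (7976 and 11180 CPM per kb). The lowest was mt-Nd6 (1023 and 1231 CPM per kb), the complex I subunit on the minus strand.

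Among nuclear genes the median level per kb was 32.3 CPM in Treg and 33.4 CPM in Tcon for complex I and 36.6 and 34.9 CPM for complex II, which differ by little beside the spread of their genes. It was 70.2 and 68.2 CPM for complex III, 81.3 and 82.9 CPM for complex IV and 79.2 and 78.2 CPM for complex V. The gene with the highest level per kb was Ndufa3 in complex I, Sdha (the flavoprotein subunit) in complex II, Uqcrh (the hinge protein) in complex III, Cox7a2l in complex IV and Atp5b (the catalytic beta subunit) in complex V, in both cell types. Atp5b stood at 283 CPM per kb in Treg and 305 in Tcon, and Cox7a2l at 277 in Treg and 391 in Tcon. The least abundant were Ndufc1 (7.23 CPM on average in Treg, 6.67 in Tcon), Ndufa12 (7.68 and 6.04 CPM), Sdhd, a membrane anchor of complex II (4.80 and 3.82 CPM), Uqcrb (16.5 and 19.0 CPM), Cox7a2 (14.3 and 18.1 CPM) and Atp5s (3.62 and 3.08 CPM).

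Subunit c, which forms the rotating ring of ATP synthase, is encoded by 3 nuclear genes with the same mature protein. Atp5g3 gave 49.8 to 53.3% of their summed CPM in Treg libraries and 48.1 to 55.8% in Tcon libraries, and Atp5g2 gave 35.3 to 37.9% and 35.8 to 39.4%. Atp5g1 gave 11.2 to 13% in Treg libraries and varied more in Tcon libraries, at 8.43 to 13%. Cox7a2l averaged 298 CPM in Treg and 420.5 CPM in Tcon, far above the related Cox7a2 at 14.3 and 18.1 CPM.

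**Figure D1:**
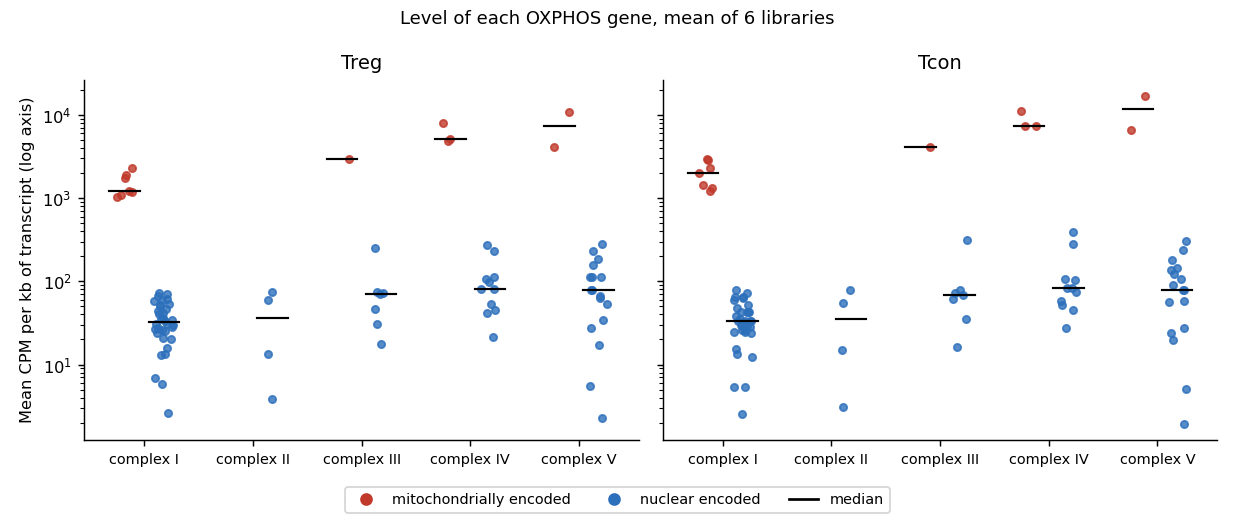
Mean CPM per kb of transcript over 6 libraries for each OXPHOS gene (points, log axis) by complex, in Treg and Tcon, with bars at the median of a group. Every mitochondrial gene lies above every nuclear gene, and complex I is lowest among the mitochondrial genes.

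The cell types differed in mitochondrial RNA far more than in nuclear OXPHOS RNA. The 13 mitochondrial genes summed to 41520 and 36923 CPM in SAH and 34826 CPM in vehicle Treg from spleen, and to 36765 and 37672 CPM in SAH and 36053 CPM in vehicle Treg from lymph node. Tcon had 54134 and 55252 CPM in SAH and 51786 CPM in vehicle from spleen, and 52787 and 54155 CPM in SAH and 51934 CPM in vehicle from lymph node. All 6 Treg libraries lay below all 6 Tcon libraries.

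The 73 nuclear genes summed to 4837 to 5108 CPM in Treg libraries and 5014 to 5446 CPM in Tcon libraries, which overlap. Mitochondrial over nuclear CPM, a ratio that does not depend on how a library was scaled, was therefore 7.20 to 8.52 in Treg libraries and 9.58 to 10.7 in Tcon libraries, with no overlap. As a share of the reads in all listed genes, with identical rows counted once, the mitochondrial genes took 3.64 to 4.30% in Treg and 5.57 to 5.75% in Tcon. The 2 tables had been normalized separately by the authors, so levels were not tested between them.

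Gene by gene, 11 of 13 mitochondrial genes were lower in all 6 Treg than in all 6 Tcon libraries and none was higher, where 19.1% of the 9784 genes in both tables were lower and 33.1% higher in this sense. The ratio of Treg over Tcon means ran from 0.613 (mt-Nd2) to 0.841 (mt-Nd5), with a median of 0.713, against a median of 1.06 over all genes. mt-Atp6 averaged 2779 ± 176 CPM in Treg libraries, against 4503 ± 187 CPM in Tcon libraries (SD, n = 6 each). The means of mt-Co1 were 12320 ± 678 CPM in Treg libraries and 17270 ± 608 CPM in Tcon libraries, with the same n. mt-Nd3 (357 to 424 CPM in Treg, 422 to 488 in Tcon) and mt-Nd5 (2007 to 2442 CPM in Treg, 2408 to 2707 in Tcon) were the 2 whose libraries overlapped. Taken per nuclear OXPHOS CPM in place of the deposited scale, 9 of 13 were lower in all Treg libraries and none higher. On that scale 1262 of all 9784 genes were lower and 3884 higher.

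The make-up of the mitochondrial RNA also differed between the cell types. mt-Co1 took 32.5 to 33.5% of mitochondrial CPM in Treg and 31.9 to 32.8% in Tcon, which overlap. mt-Atp6 took 7.34 to 7.5% in Treg and 8.20 to 8.65% in Tcon, and mt-Nd2 3.33 to 3.54% in Treg and 3.76 to 3.97% in Tcon. The other way round, mt-Nd5 took 5.44 to 6.20% in Treg and 4.65 to 5.21% in Tcon, and mt-Nd6 1.35 to 1.49% in Treg and 1.17 to 1.25% in Tcon. These shares were given for description, without a test.

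Of the 73 nuclear genes, 14 (19.2%) were lower and 5 (6.85%) higher in all 6 Treg than in all 6 Tcon libraries, the first close to the 19.1% of all genes and the second below their 33.1%. Taken per nuclear OXPHOS CPM, 10 of the 73 were lower and 17 higher, beside 1262 lower and 3884 higher of all 9784 genes. That scale sets the sum of these same 73 genes equal in every library, so a shift in their balance is built in. The lower ones included Ndufb5, an accessory subunit of complex I (26.2 CPM in Treg and 45.7 CPM in Tcon on average, a ratio of 0.572), the Rieske iron-sulphur protein gene Uqcrfs1 (62.7 and 92.9 CPM) and Cox7a2l (298 and 420.5 CPM). The 5 higher ones on the deposited scale were Ndufa11, Ndufa13, Ndufb7 and Ndufs7 of complex I and Uqcrc1 of complex III. Uqcrc1, a core protein, averaged 124 CPM in Treg and 100.5 CPM in Tcon. The values of Ndufa13 are identical to those listed under Yjefn3, so they cannot be given to either alone.

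**Figure D2:**
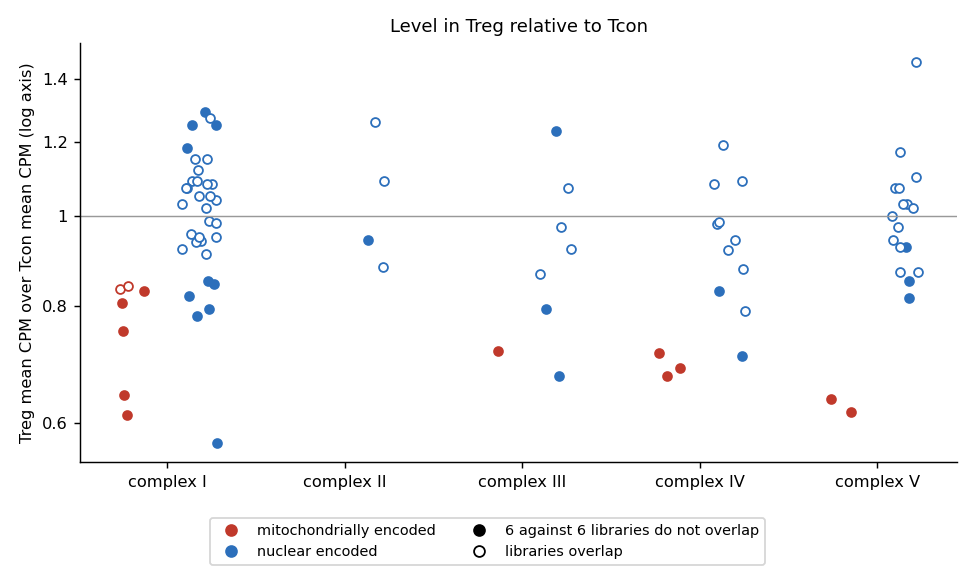
Mean level of each OXPHOS gene in Treg over that in Tcon (log axis) by complex. Filled points are genes whose 6 Treg and 6 Tcon libraries do not overlap, open points the others. The 13 mitochondrial genes lie between 0.613 and 0.841, and the 73 nuclear genes between 0.572 and 1.46.

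The treatment comparison addressed the effect of SAH on these genes. In Treg, the mitochondrial genes had small positive changes and the nuclear genes stood near 0, and no gene passed the test. Per gene, the change was estimated in 1 model with organ and treatment as terms (limma on log2 of CPM + 1, Benjamini-Hochberg adjustment over all genes, called below 0.05). Of the 86 genes 0 were called with SAH in Treg, where 0.202% of all 10405 genes were, and 6 of the 86 and 733 of all genes had an unadjusted p below 0.05. limma's voom on the rebuilt reads also called 0 of the 86, and none of the 86 in the authors' deposited table has a false discovery rate below 0.05 (the lowest is 0.236, for Cox8a).

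The median log2 change with SAH in Treg was 0.11 over the 13 mitochondrial genes, 0.020 over the 73 nuclear genes and 0.0035 over all genes. All 13 mitochondrial changes were positive under each of the 3 scalings tried and by voom (10 without spleen vehicle library 04, 12 without spleen SAH library 05), and of the nuclear ones 52 were positive as deposited. The mitochondrial changes ran from 0.048 for mt-Nd5 (1.03-fold, 95% interval 0.916 to 1.17) to 0.13 for mt-Co2 (1.10-fold, 0.980 to 1.23), and the lowest adjusted p was 0.709 by limma, for mt-Nd3. Complexes III, IV and V held mt-Cytb at 0.11, mt-Co1 at 0.11, mt-Co3 at 0.12, mt-Atp8 at 0.11 and mt-Atp6 at 0.12, and complex I mt-Nd1 at 0.10, mt-Nd2 at 0.11, mt-Nd4 at 0.094, mt-Nd4l at 0.078 and mt-Nd6 at 0.074.

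Library 05 was highest throughout. mt-Co1 stood at 13481 and 12169 CPM in SAH and 11481 CPM in vehicle Treg from spleen, and at 12306 and 12576 CPM in SAH and 11924 CPM in vehicle Treg from lymph node. Spleen SAH library 05 was highest of the 6 for 13 of the 13 mitochondrial genes, and spleen vehicle library 04 was lowest for 9. The log2 ratio of mitochondrial over nuclear CPM was 0.078 higher in SAH than in vehicle Treg (1.06-fold) on average, 0.15 higher in spleen and 0.0011 in lymph node. SAH libraries of 1 organ differed from each other by an SD of 0.094 on this scale. Over 10322 genes with a known sequence, the deviation of library 05 from the gene's mean went with GC content at a rank correlation of -0.281, the most negative of the 6, and that of library 06 at 0.264. The part of GC content in the level of the GC-poor mitochondrial genes was not tested.

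**Figure D3:**
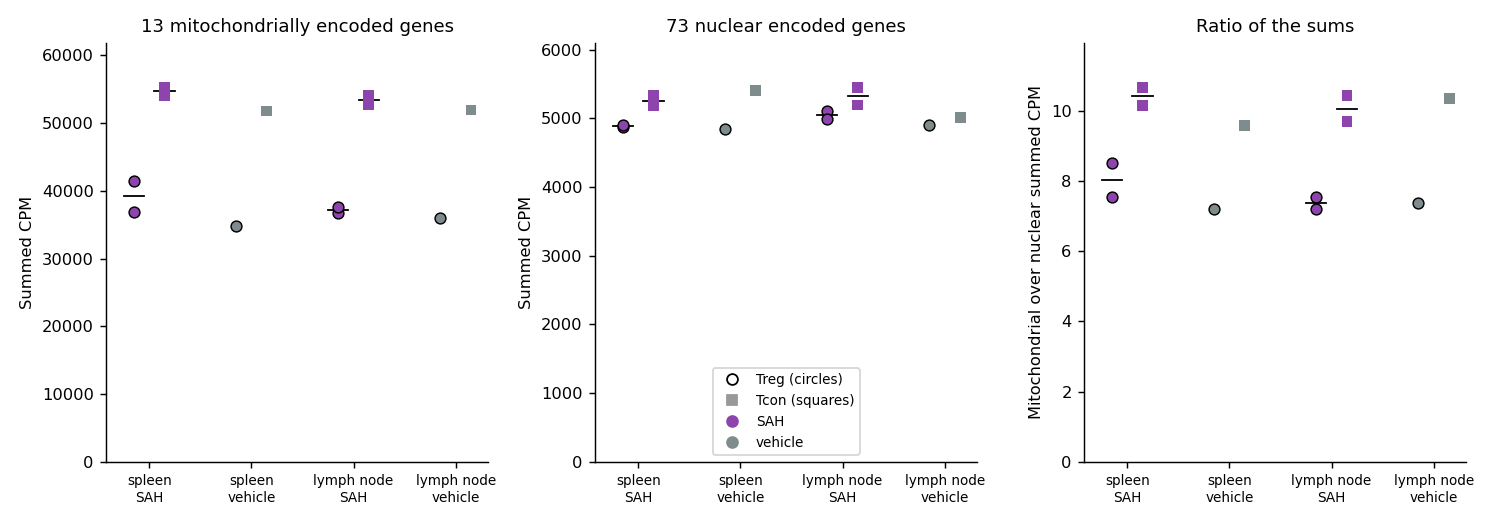
Summed CPM of the 13 mitochondrial genes, of the 73 nuclear genes, and their ratio, for each library by organ and treatment. Circles are Treg, squares Tcon, and bars mark the mean of 2 SAH libraries. Treg libraries lie below Tcon libraries in the first and the third panel, and Treg spleen SAH library 05 has the highest Treg ratio, 8.52.

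Among nuclear genes in Treg, the lowest p with SAH was that of Cox8a, a small subunit of cytochrome c oxidase. It stood at 66.1 and 59.2 CPM in SAH and 54.2 CPM in vehicle Treg from spleen, and at 51.8 and 52.9 CPM in SAH and 44.2 CPM in vehicle Treg from lymph node. In each organ both SAH libraries were above the vehicle library. Cox8a was picked by its p on these same libraries, so this adds no support of its own. The change was 1.17-fold (95% interval 1.07 to 1.28) at an adjusted p of 0.313 by limma. Without spleen SAH library 06, Cox8a was called (log2 change 0.26, limma adjusted p = 0.0285). That fit called 95 of all genes, where 21 were called with all 6 libraries. By complex the lowest p belonged also to Ndufa12, an accessory subunit of complex I (1.19-fold, interval 1.02 to 1.38, limma adjusted p = 0.646), Uqcrb of complex III (1.11-fold, 0.980 to 1.25, limma adjusted p = 0.842) and Sdhc, a membrane anchor of complex II (1.04-fold, 0.935 to 1.15, limma adjusted p = 0.961). The nuclear median was 0.0097 for complex I, 0.028 for II, 0.037 for III, 0.036 for IV and 0.020 for V.

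In Tcon the mitochondrial and the nuclear median with SAH were nearer to 0 than in Treg on the deposited scale. With nuclear genes scaled to a common sum, the nuclear median was -0.044 in Tcon and 0.0065 in Treg. Single nuclear genes ranged more widely as deposited, from -0.262 to 0.264 on the log2 scale in Tcon and from -0.105 to 0.245 in Treg. Of the 86 genes 0 were called with SAH by limma, where 1.04% of all 9886 genes were, and 3 of the 86 had an unadjusted p below 0.05, beside 1391 of all genes. voom called 0 of the 86 too, and the lowest false discovery rate of the 86 in the authors' deposited table is 0.215, for Atp5j. The median log2 change was 0.045 over the mitochondrial genes, -0.00074 over the nuclear genes and -0.0028 over all genes. All 13 mitochondrial changes were positive on the deposited scale and after median-of-ratios scaling, but only 8 once nuclear genes were scaled to a common sum and 6 by voom. They ran from 0.018 (mt-Nd4l, 1.01-fold, 95% interval 0.936 to 1.09) to 0.087 (mt-Atp6, 1.06-fold, 0.968 to 1.17).

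The lowest p in Tcon belonged to Atp5j, the coupling factor 6 of the ATP synthase stalk. It had 58.1 and 58.8 CPM in SAH and 69.1 CPM in vehicle Tcon from spleen, and 62.5 and 63.0 CPM in SAH and 66.6 CPM in vehicle Tcon from lymph node. Both SAH libraries were below the vehicle library in each organ, which adds no support, as Atp5j was picked by its p on these same libraries. Its log2 change was -0.16 (95% interval -0.29 to -0.033) at an adjusted p of 0.241 by limma. Cox7a2l (log2 change 0.12) led complex IV, mt-Nd3 (0.073) complex I, Sdhd (-0.12) complex II and Uqcrc1 (-0.058) complex III, at adjusted p of 0.351 to 0.742 by limma. The mitochondrial over nuclear ratio was 1.03-fold higher in SAH than in vehicle Tcon, but its log2 difference was 0.12 in spleen and -0.043 in lymph node.

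The SAH effect on the 86 genes was not found to differ between organs or cell types. For spleen minus lymph node in Treg, 0 of the 86 genes were called by limma, where 0.00961% of all genes were. An unadjusted p below 0.05 was reached by 1 of the 86 and by 251 of all genes. In Tcon 0 of the 86 were called, as were 0% of all genes, and 5 of the 86 and 504 of all genes had an unadjusted p below 0.05. For Treg minus Tcon, 0 of the 86 and 0% of the 9784 shared genes were called. There, 1 of the 86 and 453 of the shared genes had an unadjusted p below 0.05, and voom called none of the 86 in any of the 3 contrasts. The median of the spleen minus lymph node difference was 0.13 over the mitochondrial genes (13 of 13 positive) and -0.029 over the nuclear genes (28 of 73 positive) in Treg, beside -0.0049 over all genes. In Tcon it was 0.037 over the mitochondrial genes (10 of 13 positive) and -0.14 over the nuclear genes (15 of 73 positive), beside -0.0093 over all genes with 47.7% positive. The median of Treg minus Tcon was 0.049 over the mitochondrial and 0.020 over the nuclear genes, beside 0.0040 over all genes. No test was made of these groups, and each vehicle arm of an organ rests on 1 library. A p that misses the threshold does not show that the effects are alike.

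Atp5i, which encodes subunit e of ATP synthase and helps to pair the enzyme, had the lowest p of the 86 in both organ contrasts. It stood at 12.5 and 10.6 CPM in SAH and 7.80 CPM in vehicle Treg from spleen, and at 9.12 and 9.56 CPM in SAH and 11.8 CPM in vehicle Treg from lymph node. In Tcon it stood at 9.46 and 9.42 CPM in SAH and 15.5 CPM in vehicle from spleen, and at 10.4 and 8.40 CPM in SAH and 8.27 CPM in vehicle from lymph node. The SAH effect in spleen minus that in lymph node was 0.82 on the log2 scale in Treg (limma adjusted p = 0.973) and -0.82 in Tcon (limma adjusted p = 0.713). Without Treg spleen SAH library 06 the Treg value was 0.93, and without Tcon lymph node SAH library 03 that of Atp5d in Tcon was 0.94. Each of these fits leaves 1 library in both arms of an organ, so no call is given.

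**Figure D4:**
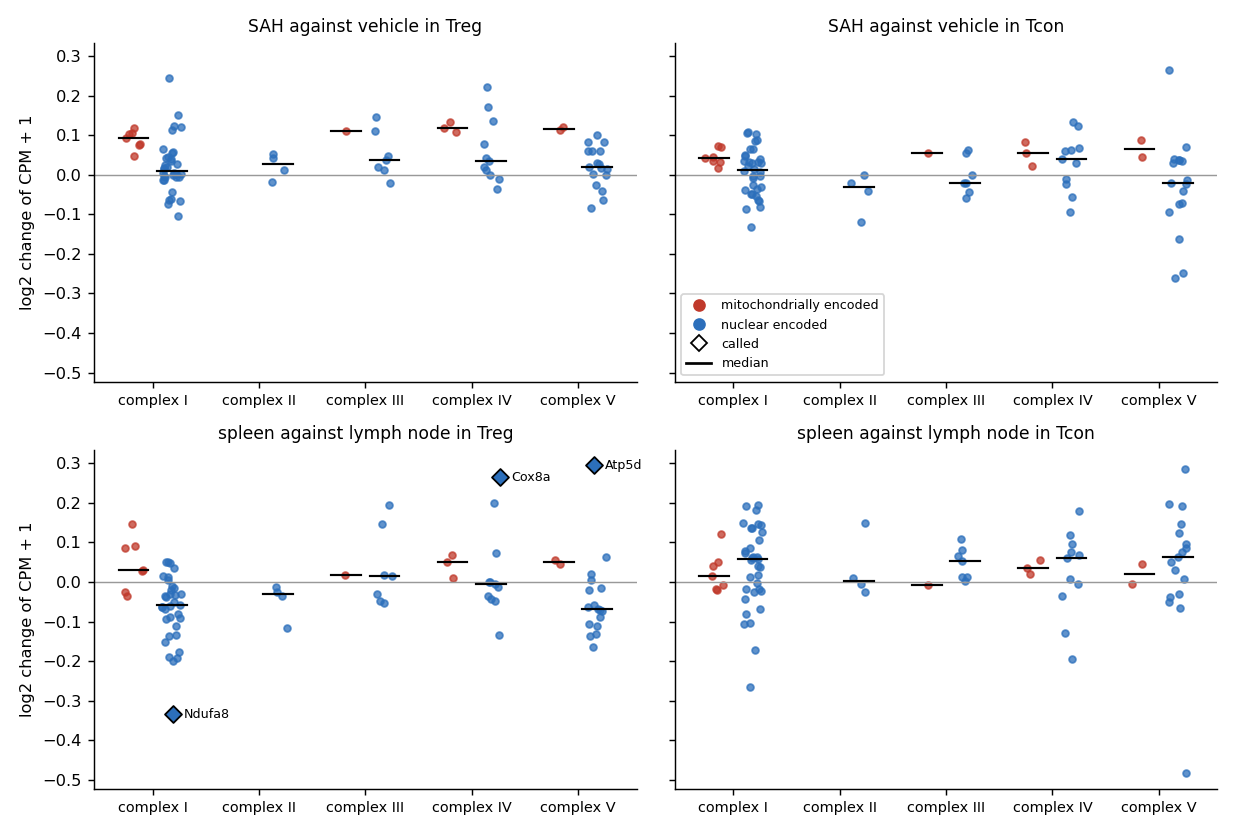
log2 change of CPM + 1 for each OXPHOS gene by complex, with SAH against vehicle in the upper and spleen against lymph node in the lower panels, for Treg and Tcon. Bars mark medians and diamonds called genes. Only Cox8a, Atp5d and Ndufa8 in the organ comparison of Treg were called.

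Between organs, 3 nuclear genes of 3 complexes were called in Treg, and no mitochondrial gene was. Cox8a rose 1.2-fold in spleen (95% interval 1.10 to 1.31, limma adjusted p = 0.00589) and Atp5d, the delta subunit in the central stalk of ATP synthase, rose 1.23-fold (1.09 to 1.38, limma adjusted p = 0.0202). Ndufa8, an accessory subunit of complex I, fell to 0.793-fold (0.695 to 0.905, limma adjusted p = 0.0202). These 3 are 3.49% of the 86 genes, while 14.7% of all 10405 genes were called between organs in Treg. The promoters shown above are those of these genes, with ETS letters in Cox8a, NRF1 letters in Ndufa8 and neither in Atp5d.

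Atp5d had 62.6 and 48.5 CPM in SAH and 50.6 CPM in vehicle Treg from spleen, and 42.7 and 45.1 CPM in SAH and 42.5 CPM in vehicle Treg from lymph node. Ndufa8 had 9.12 and 10.9 CPM in SAH and 10.2 CPM in vehicle Treg from spleen, and 12.8 and 12.3 CPM in SAH and 13.7 CPM in vehicle Treg from lymph node. For all 3 genes, with Cox8a as given above, the 3 spleen libraries did not overlap the 3 lymph node libraries. The 3 genes were picked by the test on these same libraries, so this adds no support of its own. The call of Cox8a was lost without library 01, 02 or 04 (highest adjusted p 0.0547), and those of Atp5d and Ndufa8 without 01, 02, 04 or 05 (highest adjusted p 0.151 and 0.152). Without library 06, 6 of the 86 were called, beside 1830 of all genes, where 1531 were with all 6 libraries. Without 01, 02 or 04 none of the 86 was called, beside 783, 768 and 789 of all genes.

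In Tcon neither Cox8a nor Atp5d followed the Treg pattern. Atp5d had 28.6 and 28.6 CPM in SAH and 24.3 CPM in vehicle Tcon from spleen, against 26.0 and 49.7 CPM in SAH and 43.4 CPM in vehicle Tcon from lymph node. Cox8a had 41.7 and 45.3 CPM in SAH and 40.0 CPM in vehicle Tcon from spleen, against 35.8 and 56.8 CPM in SAH and 55.9 CPM in vehicle Tcon from lymph node. For Atp5d and Cox8a, lymph node libraries 01 and 03 stood above the other 4 Tcon libraries. Lymph node SAH library 02 was the lowest of all 6 for Cox8a and second lowest for Atp5d. Of the 86, 0 were called between organs in Tcon by limma and by voom (4.73% of all genes were by limma). An unadjusted p below 0.05 was reached by 6 of the 86 and by 1724 of all 9886 genes. Without library 02, 7 of the 86 were called, beside 628 of all genes, where 468 were with all 6 libraries. Among the 7 were Atp5d at -0.79 (adjusted p = 4.89e-05) and Cox8a at -0.42 (adjusted p = 0.00399).

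The organ difference in Treg minus that in Tcon was called for 0 of the 86 genes by limma and by voom. By limma 1.46% of all genes were called. An unadjusted p below 0.05 was reached by 13 of the 86 and by 1190 of all 9784 shared genes. Atp5d had the lowest p (log2 difference 0.78, 95% interval 0.26 to 1.29, limma adjusted p = 0.153), followed by Ndufb5 (-0.27, limma adjusted p = 0.166). Without Tcon library 02, 5 of the 86 were called, beside 287 of all genes, where 143 were with every library. Among the 5 were Atp5d at 1.09 (adjusted p = 9.32e-05) and Cox8a at 0.69 (adjusted p = 0.000378). With the library number shared by Treg and Tcon as a block, 7 of the 86 were called, beside 703 of all genes. The labels do not say that a number marks the same mice.

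**Figure D5:**
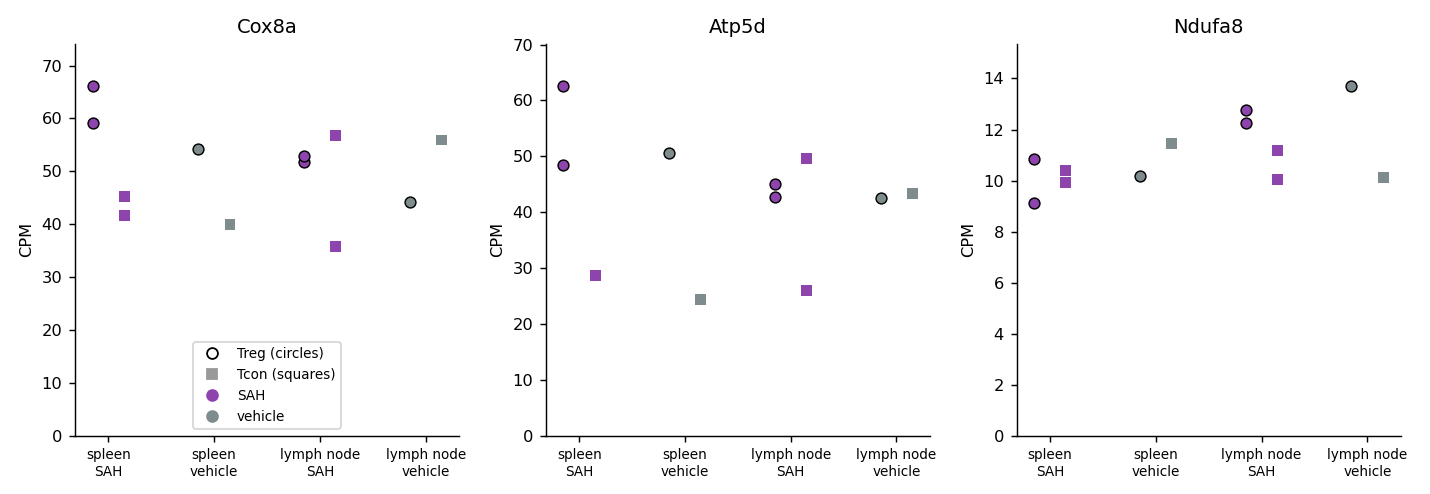
CPM of Cox8a, Atp5d and Ndufa8 in every library by organ and treatment, with Treg as circles and Tcon as squares. In Treg, where the 3 were picked by the organ test on these libraries, the spleen libraries do not overlap the lymph node libraries. In Tcon 2 of 3 lymph node libraries stand apart for Cox8a and Atp5d.

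As groups, the genomes leaned opposite ways between organs in Treg by their medians. The log2 ratio of mitochondrial over nuclear CPM differed by 0.044 on average, spleen minus lymph node, with 0.12 in SAH and -0.032 in vehicle libraries. SAH libraries of 1 organ differed from each other by an SD of 0.0945 on this scale. The median log2 change in spleen was 0.045 over mitochondrial genes, with 11 of 13 positive, and -0.039 over nuclear genes, with 19 of 73 positive, beside -0.0028 over all genes with 49.0% positive. With nuclear genes scaled to a common sum 8 of 13 mitochondrial genes were positive, and without spleen SAH library 05 only 5. In Tcon the medians were 0.019 (8 of 13 positive) and 0.056 (50 of 73 positive). The nuclear genes, short at a median of 875 nt against 3033 nt for all Treg genes, had a median deviation from their means of 0.030 and -0.028 in SAH and 0.072 in vehicle Tcon from spleen, and of 0.070 and -0.056 in SAH and -0.078 in vehicle Tcon from lymph node. Over 9806 genes, the deviation of a library went with transcript length at rank correlations of -0.030 and 0.162 in SAH and -0.186 in vehicle Tcon from spleen, and of -0.276 and 0.135 in SAH and 0.165 in vehicle Tcon from lymph node. With GC content these were 0.096 and 0.229 in SAH and -0.059 in vehicle Tcon from spleen, and 0.145 and -0.168 in SAH and -0.213 in vehicle Tcon from lymph node. In Tcon, the 3 libraries with a nuclear median below 0 were the 3 with a positive length correlation. In Treg the signs did not pair in this way. Spleen Treg libraries 05, 06 and 04 had length correlations of 0.062, -0.023 and 0.055, at nuclear medians of -0.023, -0.0067 and -0.028. Lymph node Treg libraries 02, 03 and 01 had -0.228, 0.093 and 0.051, at nuclear medians of 0.043, 0.014 and 0.0054. The part of length and GC content in the nuclear change was not tested. The nuclear median was below 0 for complexes I (-0.059), II (-0.030), IV (-0.0050) and V (-0.067) in Treg and above 0 for all 5 complexes in Tcon, at 0.0023 for complex II and 0.0526 to 0.0635 for the rest. Of these groups no test was made.

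mt-Nd3, a core membrane subunit of complex I, had the lowest p of the mitochondrial genes between organs in both cell types. It stood at 424 and 419 CPM in SAH and 361 CPM in vehicle Treg from spleen, against 357 and 369 CPM in SAH and 359 CPM in vehicle Treg from lymph node. In Tcon it stood at 488 and 479 CPM in SAH and 461 CPM in vehicle from spleen, against 458 and 433 CPM in SAH and 422 CPM in vehicle from lymph node. The spleen libraries lay above the lymph node libraries in Tcon and overlapped them in Treg. mt-Nd3 was picked by its p on these same libraries, so this adds no support of its own. The change was 1.11-fold in Treg (95% interval 1.02 to 1.2, limma adjusted p = 0.0785) and 1.09-fold in Tcon (1.01 to 1.17, limma adjusted p = 0.22). By complex, the lowest p in Treg also went to Sdhb (log2 change -0.12, limma adjusted p = 0.149) and Uqcrb (0.20, limma adjusted p = 0.106), and in Tcon to Atp5h (0.20), Sdhd (0.15), Uqcrh (0.11) and Cox6b1 (0.12), at limma adjusted p of 0.167 to 0.601.

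Among genes that serve the complexes, none was called with SAH. Of the genes of 6 lists, 47, 22, 32, 13, 17 and 19 listed in Treg (assembly factors, other electron transport and ATP export genes, mitochondrial DNA and RNA handling, nuclear regulators, citric acid cycle, and outer membrane, import and chaperone genes, in that order), 0 were called with SAH by limma in either cell type. The medians with SAH were between -0.021 and 0.024 in Treg and between -0.043 and 0.018 in Tcon, beside 0.0035 and -0.0028 over all genes, and the lowest adjusted p was 0.051, in the outer membrane, import and chaperone list of Tcon.

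Between organs in Treg, 12 of these genes were called, 4 higher and 8 lower in spleen. By list the share called was 0 to 15.4%, beside 14.7% of all genes. The regulators gave Nrip1, a nuclear corepressor of oxidative metabolism genes, at 1.48-fold (95% interval 1.37 to 1.60, limma adjusted p = 3.98e-06), and Pprc1, a coactivator of the PGC-1 family, at 0.858-fold. Nrip1 had 197 and 220 CPM in SAH and 230 CPM in vehicle Treg from spleen. In Treg from lymph node it had 139 and 144 CPM in SAH and 151 CPM in vehicle. The organs did not overlap, which adds no support, as Nrip1 was picked by the test on these libraries. The assembly factors gave Acad9 of complex I at 0.821-fold (limma adjusted p = 0.00212), Bcs1l of complex III at 0.801-fold and Sdhaf1 of complex II at 1.2-fold. Of electron transport and export, Slc25a4, an ADP/ATP carrier of the inner membrane, fell to 0.804-fold and the coenzyme Q gene Coq8a rose 1.2-fold.

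Genes that copy and coat mitochondrial DNA moved in different directions between organs in Treg. Polg2, the accessory subunit of its polymerase, rose 1.23-fold, while the catalytic subunit gene Polg fell to 0.899-fold and Ssbp1, the single-strand binding protein, to 0.821-fold. The prohibitin genes Phb and Phb2 fell to 0.883-fold and 0.893-fold. Of the 47 assembly factors 2 were lower and 1 higher, of the 32 DNA and RNA genes 2 and 1, of the 13 regulators 1 and 1, of the 22 transport genes 1 and 1, of the 19 import genes 2 and 0, and of the 17 citric acid cycle genes 0. Only Nrip1 and Acad9 were called without each of the 6 libraries in turn. Slc25a4 lost its call without library 02 (adjusted p = 0.0515), Pprc1 and Polg2 without 01, 02 or 04, Coq8a without 01, 02, 04 or 05, Phb, Polg and Sdhaf1 without any but 06, and Ssbp1, Phb2 and Bcs1l without any but 05, at adjusted p of at most 0.366.

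In Tcon 3 of these genes were called between organs, in the direction seen in Treg. By list the share called was 0 to 7.69%, beside 4.73% of all genes. Nrip1 rose 1.19-fold in spleen (95% interval 1.10 to 1.30, limma adjusted p = 0.0261), with 103 and 110 CPM in SAH and 107 CPM in vehicle, against 86.3 and 93.0 CPM in SAH and 88.1 CPM in vehicle Tcon from lymph node. Polg fell to 0.849-fold and Acad9 to 0.820-fold (limma adjusted p = 0.0278 and 0.029). Each lost its call in 5 of 6 fits with 1 library left out, Nrip1 and Polg without any but 02 and Acad9 without any but 03, at adjusted p of at most 0.171.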

How the data were processed

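RNA was sequenced from 12 libraries, 6 of Treg and 6 of Tcon, after stranded mRNA library preparation per the labels' protocols. The submitters' processing notes name TopHat, Bowtie, edgeR and the build mm10, with no versions. The deposited tables, 1 for each cell type, hold a signal per symbol and library, which is CPM per the file headers, scaled by the authors within each table. They also hold the authors' log2 fold changes, a score, p-values and false discovery rates, which the authors deposited per comparison and which were used only where named. How reads matching several places were counted is not given in the sources used here, so values of nuclear subunits with processed pseudogenes are uncertain to that extent.

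For both cell types, 12 of the 13 mitochondrial genes are listed a second time under another symbol with the same values, as is Ndufa13. Such rows were counted once among the 86 genes and in library totals, and stayed in the fits and in the shares of all genes (142 of 10405 Treg and 136 of 9886 Tcon rows repeat another), with counting them once as an alternative. The values step by what 1 read is worth (at most 0.0267 CPM), which gave the rebuilt depth. Genes with at least 1 CPM in at least 2 libraries were kept, which removed 0. log2(CPM + 1) was fitted with limma 3.58.1 in R 4.3.3, with organ and treatment as terms and a trended prior variance (3 residual degrees of freedom), with their interaction (2), or over both cell types and their 9784 shared symbols (6). Fold changes are on this scale and understate those of low genes. p-values were adjusted by Benjamini-Hochberg over all symbols of a fit and called below 0.05. The fits were tested on simulated data. A count test had been planned, but the deposited unit is not counts and it was not run. limma's voom on rebuilt reads was added after seeing the data. Lengths and GC content came from GENCODE M21.

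The genes, lists and comparisons were chosen with earlier results of these data known. Named were all mitochondrial genes, every called gene of a comparison (at most 5 in each other list), and in each complex the gene with the highest level per kb, the lowest mean CPM and the lowest p. Other genes were chosen after their values were seen. Alternatives were the pseudocount, the filter, the scaling, identical rows, the variance trend, the block and leaving out each library.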

Additional observations from a re-analysis of the deposited data

How the results depend on the processing

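For SAH, 0 of the 86 genes were called under pseudocounts of 0.1 and 5, without a filter, under both rescalings, with identical rows counted once, without the variance trend and by voom, the last chosen after seeing the data. Leaving out 1 SAH library at a time gave 0 to 1 calls with SAH in Treg, beside 8 to 95 of all genes. In Tcon it gave 0 to 0, beside 11 to 226 of all genes. For Treg minus Tcon it gave 0 to 0, beside 0 to 7 of all genes. No calls are given for the organ contrast of SAH with a library left out, which leaves 1 library in each arm of an organ. Nor are they given for SAH without a vehicle library, which leaves 1 vehicle library in a cell type. Between organs, leaving out any 1 library gave 0 to 6 calls in Treg, 0 to 7 in Tcon and 0 to 5 for their difference. Over all genes, these fits gave 768 to 1830, 215 to 628 and 79 to 287 calls. Without the variance trend, 2 of the 3 organ calls in Treg were left, and calls with SAH over all genes were 7 in Treg, against 21, and 11 in Tcon, against 103. The cause was not tested. The SAH log2 change ranged from -0.043 (without lymph node vehicle 01) to 0.149 for Sdhc in Treg, from -0.291 to 0.054 for Sdhd and from -0.118 to 0.0012 for Uqcrc1 in Tcon, where both reversed without spleen vehicle 04. With 1 library left out, the log2 mitochondrial over nuclear ratio moved between -0.043 and 0.12 for SAH and between -0.057 and 0.050 for organ in Tcon.

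Library numbers are shared by Treg and Tcon, but the labels do not say that a number marks the same mice. Deviations from the group mean correlated at 0.438 for numbers 02 and 03 and 0.556 for 05 and 06 over 9784 genes. With the number as a replicate block, 7 of the 86 genes were called for the organ difference in Treg minus Tcon (703 of all genes) and 0 for the SAH effect (76 of all genes). The planned edgeR test was not run, because the deposited unit is not counts, and the organ contrast of SAH has no value without a vehicle library.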
